A study of Bos taurus with 15 samples.

Results

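The regional identity transcription factors are DNA-binding proteins that mark where along the digestive tract an epithelial cell lies. The members were looked up by symbol among the 27270 genes in the gene table of the libraries. Of 9 symbols, 8 were found, each once: *PDX1* (ENSBTAG00000010690), *GATA4* (ENSBTAG00000005425), *GATA5* (ENSBTAG00000047944), *GATA6* (ENSBTAG00000005734), *CDX1* (ENSBTAG00000012014), *CDX2* (ENSBTAG00000001819), *HNF4A* (ENSBTAG00000012116) and *ONECUT2* (ENSBTAG00000022819). *SOX2* was not analysed here. The study profiled cattle by 10x Genomics single-cell RNA sequencing, in which UMIs (unique molecular identifiers) count the RNA molecules captured from a cell and a barcode names the cell. The 15 libraries used here covered, from newborn (NB) calves, the reticulum and omasum (forestomachs), the abomasum (glandular stomach), the duodenum, jejunum and ileum of the small intestine, the cecum, colon and rectum, and outside the tract the liver and salivary gland. From adult (AD) cattle there were 4, taken from the duodenum, jejunum, cecum and colon of 1 lactating Holstein cow. The ages of the animals and the calf behind each NB library were not used here. The study sampled fewer calves than there are NB libraries, so some of these libraries share a calf. Since there was 1 library per tissue and stage, the spread between animals is unknown and segments and stages were not tested against each other. Differences were read against exact Poisson 95% intervals, given in parentheses, which cover counting error only.

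Members were measured in barcodes with at least 1 UMI of *EPCAM*, an adhesion protein of simple epithelia, or *KRT14*, a keratin of the basal layer of stratified epithelia. These were 31365 of 119798 barcodes kept. They made up 92.3% of the kept barcodes of the NB reticulum, 94.97% of the omasum, 54.7% of the abomasum, 47.2% of the duodenum and 10.9% to 23.1% in the other NB segments. The NB liver gave 213 such barcodes, the NB salivary gland 73, the AD duodenum 180, the AD jejunum 273, the AD cecum 654 and the AD colon 438. Total UMIs ranged from 17707625 to 129458578 per library, and the median UMIs per epithelial barcode from 4168.5 (AD duodenum) to 12247.5 (NB abomasum). Of 118012 distinct barcode sequences among those kept, 1771 occurred in more than 1 library, and no pair of libraries shared more than 35.

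The labels of the NB reticulum, omasum, abomasum and duodenum were checked against genes known to mark these regions. *KRT5*, another basal keratin, stood at 6295 CPM (UMIs of the gene per 1000000 UMIs) in the reticulum of NB calves and 7574 CPM in the omasum, and *TP63*, the master regulator of stratified epithelium, at 46.4 and 42.8 CPM. The NB abomasum held *CYM* (chymosin) at 240145 CPM and *ATP4A* (acid pump) at 927 CPM, and the NB duodenum *FABP2*, a fatty acid carrier of enterocytes, at 6204 CPM and *LCT* (lactase) at 60.1 CPM. *FABP2* and *LCT* do not set duodenum apart from jejunum, since the NB jejunum held them at 4153 and 31.2 CPM. In the AD jejunum they stood at 286 and 0 CPM. No such genes are given here for the other NB segments or for the AD cecum and colon. The AD duodenum did not match an epithelium. Its 1 UMI of *GATA4* and 0 UMIs of the other members are therefore not read as levels of duodenal epithelium. *KRT8*, a keratin of simple epithelia, stood at 3.12 CPM there against 1058 CPM in the NB duodenum, and the T cell gene *CD3E* at 1154 CPM. UMIs of the leukocyte gene *PTPRC* were found in 82.8% of its *EPCAM* or *KRT14* barcodes. That share was 45.8% to 61.6% in the other AD libraries, 52.1% in the NB salivary gland, 36.6% in the NB liver, 14.6% to 29.6% from NB ileum to rectum, and 8.89% or less from NB reticulum to jejunum. The fibroblast gene *COL1A2* was found in 34.2% of these barcodes in the NB cecum and 35.8% in the NB rectum, against 2.15% in the NB colon. CPM of an epithelial gene is lower in a library with more barcodes of other cells. Values are therefore also given for the barcodes with no UMI of *PTPRC* or *COL1A2*, called the stricter barcodes. In such sums, fewer cells of a type and less RNA per cell cannot be told apart.

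GATA4, GATA5 and GATA6 are zinc finger proteins of the endoderm that are known to set gastric and proximal intestinal identity. CDX1 and CDX2 are homeodomain proteins of the intestine, and loss of CDX2 in mice is known to turn intestinal epithelium toward a stomach or esophagus type. PDX1 is a homeodomain protein of the posterior foregut, known for the pancreas, the distal stomach and the duodenum. HNF4A is a nuclear receptor of liver and gut, and ONECUT2 a cut homeodomain protein of liver, bile duct and duodenum.

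**Figure D1:**
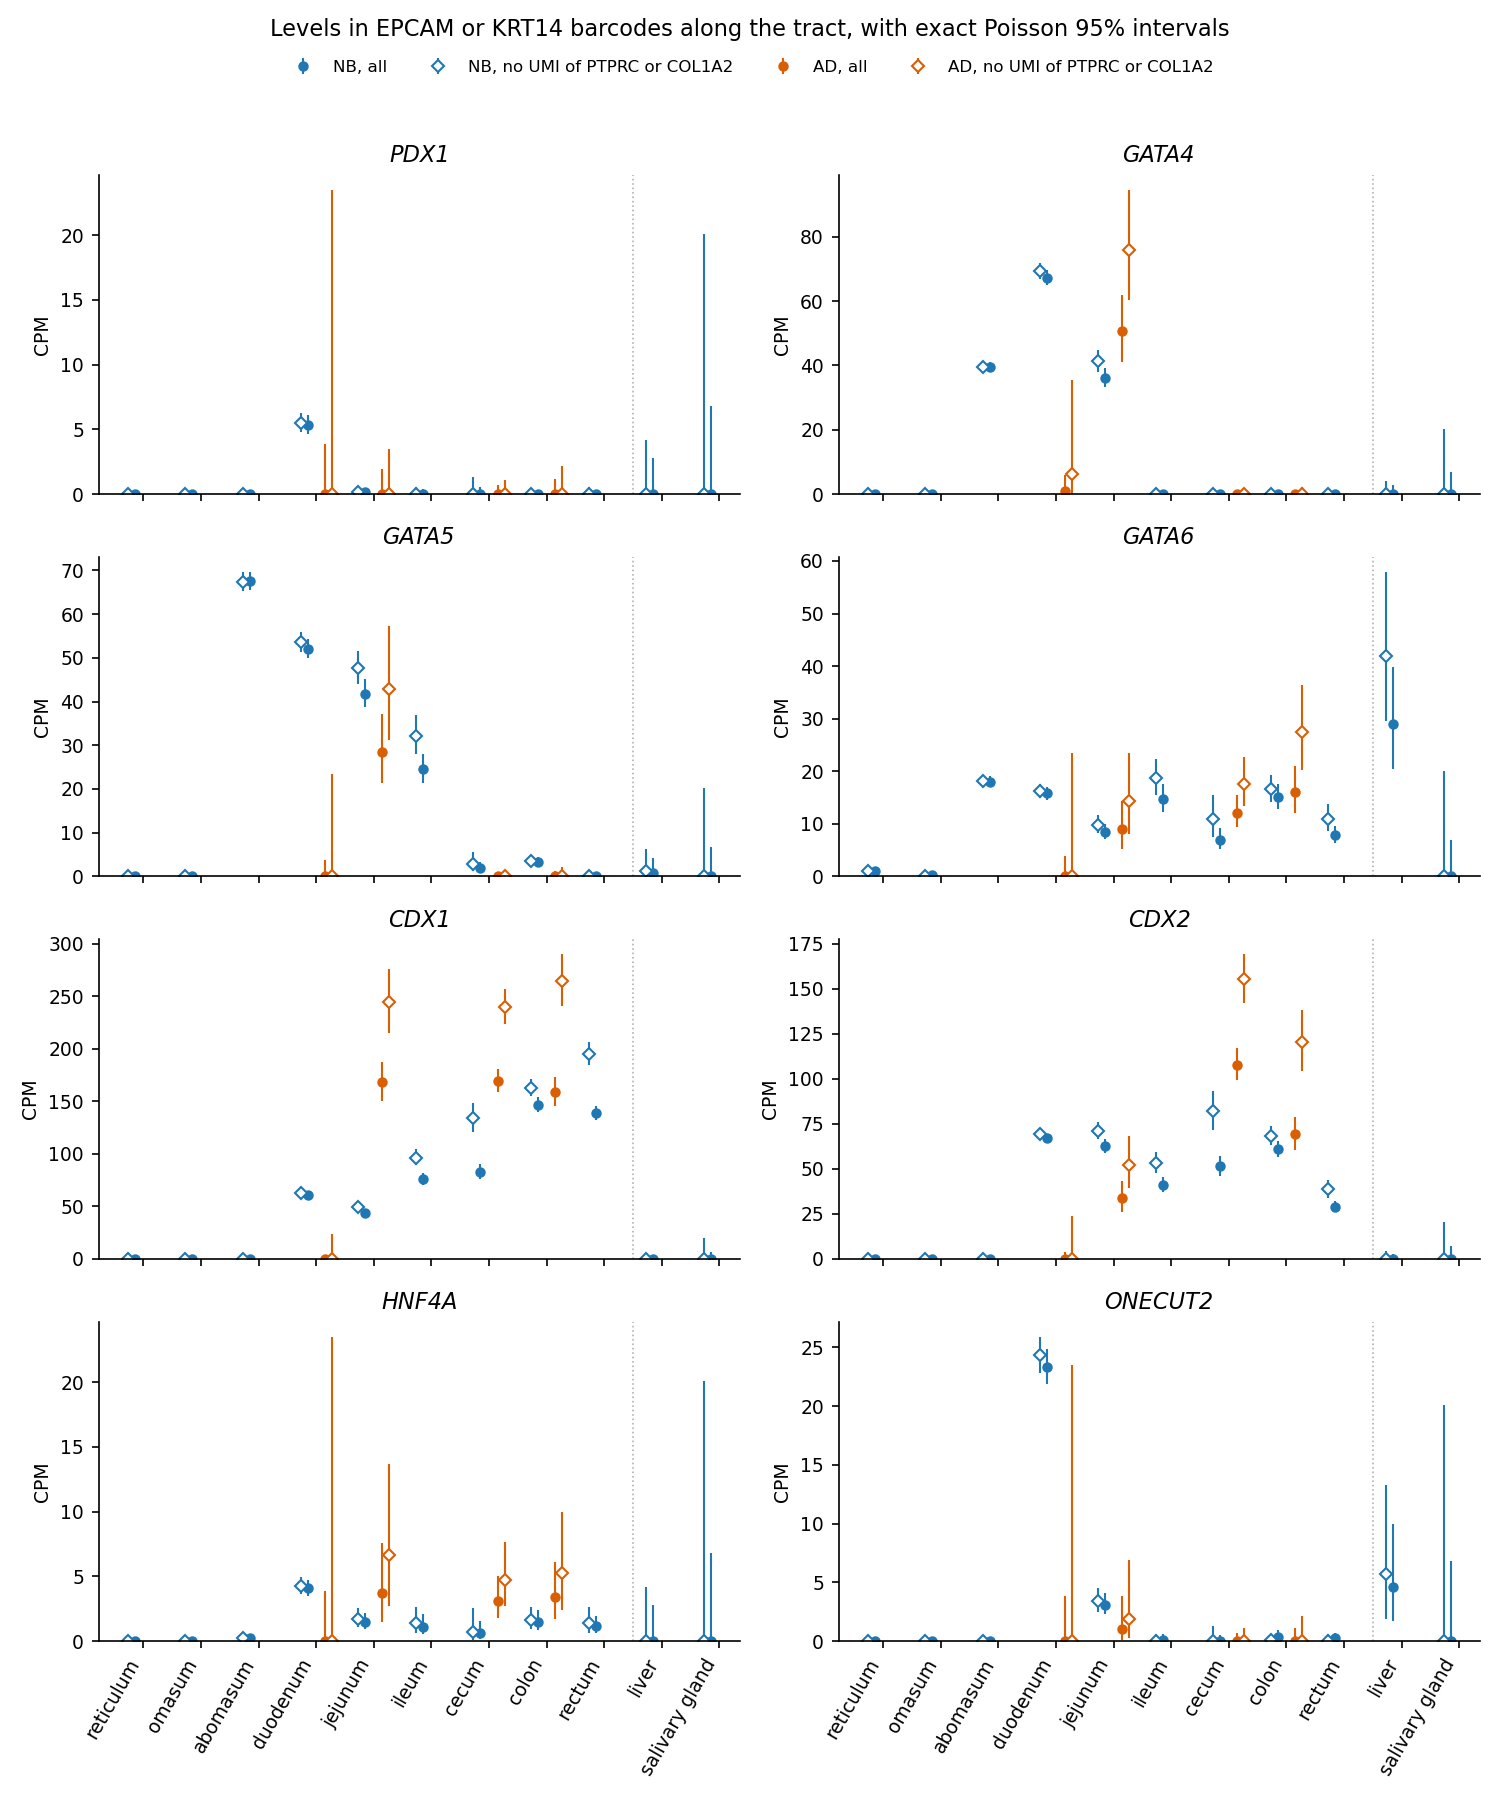
Level of each of the 8 members (CPM, linear axis, own scale in each panel) in EPCAM or KRT14 barcodes of each library, with exact Poisson 95% intervals. Filled circles are all such barcodes, open diamonds those with no UMI of PTPRC or COL1A2, blue NB and orange AD; the dotted line sets liver and salivary gland apart from the tract. GATA4 is seen from abomasum to jejunum, GATA5 from abomasum to ileum, CDX1 and CDX2 from duodenum to rectum, and PDX1 and ONECUT2 mainly in the NB duodenum.

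*GATA4* was found in 3 consecutive NB segments. Its level was 0.015 CPM in the reticulum and 0.11 CPM in the omasum, then 39.5 CPM (38.0 to 41.1) in the abomasum, 67.3 CPM (64.8 to 69.8) in the duodenum and 36.2 CPM (33.3 to 39.3) in the jejunum. The NB ileum, cecum and rectum held 0 UMIs, which allows up to 0.338, 0.445 and 0.234 CPM, and the NB colon held 1 UMI. The range of *GATA4* thus ended between jejunum and ileum. With the 0 UMIs of the ileum set to 3, *GATA4* was 107-fold lower there, and 89.6-fold lower in the stricter barcodes. In the AD libraries *GATA4* stood at 50.7 CPM (41.1 to 61.9) in the jejunum and at 0 UMIs in the cecum and colon, which allows up to 0.552 and 0.927 CPM. In the stricter barcodes the NB abomasum, duodenum and jejunum held 39.5, 69.3 and 41.2 CPM and the AD jejunum 76.0 CPM. The NB liver and salivary gland barcodes held 0 UMIs, which allows up to 2.29 and 5.56 CPM.

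*GATA5* had the same start but stayed high 1 segment further along. It was at 0 UMIs in the NB reticulum and omasum, 67.6 CPM (65.6 to 69.6) in the abomasum, 52.0 CPM (49.9 to 54.3) in the duodenum, 41.8 CPM (38.6 to 45.1) in the jejunum and 24.6 CPM (21.4 to 28.1) in the ileum. Each of these 4 levels lay apart from the next, but in the stricter barcodes duodenum (53.7 CPM, 51.4 to 56.0) and jejunum (47.7 CPM, 44.0 to 51.6) overlapped. Beyond the ileum the cecum held 1.93 CPM (1.03 to 3.30), the colon 3.20 CPM (2.24 to 4.42) and the rectum 0.156 CPM (2 UMIs). The AD jejunum held 28.5 CPM (21.4 to 37.2), and the AD cecum and colon 0 UMIs. In the stricter barcodes the step from ileum to cecum was 32.2 to 2.83 CPM, an 11.4-fold difference.

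*GATA6* was the member with the widest range. It was at 18.0 CPM (17.0 to 19.1) in the NB abomasum, 15.8 CPM (14.6 to 17.0) in the duodenum, 8.45 CPM (7.07 to 10.0) in the jejunum, 14.8 CPM (12.3 to 17.5) in the ileum, 6.98 CPM (5.13 to 9.28) in the cecum, 15.1 CPM (12.9 to 17.5) in the colon and 7.86 CPM (6.40 to 9.55) in the rectum. The order alternated along the tract, with ileum and colon above their neighbors. These 2 segments also had the lowest share of *COL1A2* barcodes in the NB intestine, and in the stricter barcodes the levels from jejunum to rectum were 9.81, 18.7, 10.95, 16.6 and 10.99 CPM. Ileum and colon were again above their neighbors, and the intervals of cecum (7.44 to 15.5) and colon (14.1 to 19.3) overlapped. The AD jejunum, cecum and colon held 8.98, 12.1 and 16.1 CPM. The forestomachs were at 1.09 CPM (0.854 to 1.37) in the reticulum and 0.178 CPM (0.102 to 0.289) in the omasum. The NB liver had the highest *GATA6* level of all 15 libraries, 29.0 CPM (20.5 to 39.8), from 38 UMIs in 32 of 213 barcodes, overlapping with that of the AD colon (up to 21.1).

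*CDX2* was found in every intestinal library but the AD duodenum (0 UMIs), which did not match an epithelium. It had 0 UMIs in the NB reticulum, omasum and abomasum (the abomasum, with 4882 barcodes and 63543633 UMIs, allows up to 0.047 CPM), in the liver and in the salivary gland. From the NB duodenum on it was at 66.9 CPM (64.5 to 69.4), 62.6 CPM in the jejunum (58.7 to 66.6), 40.9 CPM in the ileum (36.8 to 45.3), 51.5 CPM in the cecum (46.2 to 57.2), 60.7 CPM in the colon (56.3 to 65.4) and 28.7 CPM in the rectum (25.9 to 31.8). The rectum had the lowest *CDX2* level of the NB intestine, and the intervals of duodenum, jejunum and colon overlapped. In the stricter barcodes the series from duodenum to rectum was 69.0, 71.1, 53.3, 82.0, 68.3 and 38.5 CPM, the cecum (71.8 to 93.2) overlapping with jejunum and colon. Barcodes with the absorptive markers listed further below were 78.6%, 51.4%, 8.65%, 11.7%, 14.3% and 20.7% of these. In that class alone *CDX2* was at 72.5, 93.9, 102, 146, 87.2 and 56.8 CPM, with the rectum again lowest but the ileum not below the jejunum. The part of this mix in the series was not tested. The AD jejunum held 33.8 CPM (26.0 to 43.2), the AD cecum 107.8 CPM (99.3 to 117) and the AD colon 69.2 CPM (60.5 to 78.9), and in the stricter barcodes 52.3, 155 and 120.3 CPM.

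*CDX1* began at the same border but was highest at the distal end. It had 2, 8 and 1 UMIs in the NB reticulum, omasum and abomasum, then 60.4 CPM (58.1 to 62.8) in the duodenum, 43.5 CPM (40.2 to 46.8) in the jejunum, 75.6 CPM (70.0 to 81.6) in the ileum, 83.1 CPM (76.4 to 90.3) in the cecum, 147 CPM (139.6 to 154) in the colon and 139 CPM (133 to 146) in the rectum. Ileum and cecum did not lie apart, nor did colon and rectum. In the stricter barcodes the series from duodenum to rectum was 62.7, 48.9, 96.4, 134, 163 and 195 CPM, so that each step from the jejunum on was upward and apart from the one before. The AD jejunum, cecum and colon held 168, 169.7 and 159 CPM, and 244, 239.7 and 265 CPM in the stricter barcodes. The 2 CDX genes thus had different distal profiles: from colon to rectum *CDX2* was lower with intervals apart in both sets of barcodes, while *CDX1* overlapped in all barcodes and was higher in the stricter ones.

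*PDX1* and *ONECUT2* marked the duodenum. *PDX1* had 227 UMIs in the NB duodenum, 5.33 CPM (4.66 to 6.07), and 2 UMIs in the NB jejunum, and 0 UMIs in the other 13 libraries, the abomasum among them, where up to 0.0472 CPM is allowed. *ONECUT2* was at 23.3 CPM (21.9 to 24.8) in the NB duodenum, 3.07 CPM (2.26 to 4.07) in the NB jejunum and 4.58 CPM (1.68 to 9.96, 6 UMIs) in the NB liver. In the remaining 12 libraries *ONECUT2* had at most 4 UMIs. In the AD duodenum both had 0 UMIs, which allows up to 3.12 CPM, but *KRT8* stood at only 3.12 CPM in that library, so these values are not a measure of duodenal epithelium.

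*HNF4A* had few UMIs in every library. Whether the annotated 3′ end covers its transcripts in cattle was not tested, so a count of 0 does not show that it is not expressed. It was at 4.09 CPM (3.50 to 4.74) in the NB duodenum, 0.594 to 1.51 CPM in the NB segments from jejunum to rectum, 0.236 CPM in the NB abomasum and 3.13 to 3.70 CPM in the AD jejunum, cecum and colon. The forestomachs held 0 UMIs. In the NB liver it also had 0 UMIs in the 213 *EPCAM* or *KRT14* barcodes and in the 25 barcodes without these genes that had hepatocyte markers (*ALB*, *TTR*, *APOA1*, *FGB*, *SERPINA1*). These counts of 0 allow up to 2.29 CPM in the 213 barcodes and, as the upper bound of the exact Poisson interval, up to 29.4 CPM in the 25, where a level like that of the intestinal libraries was not detectable at this depth. Its paralog *HNF4G* was at 225 CPM in the NB duodenum and 49.0 to 159.8 CPM in the other NB intestinal libraries; levels are not compared between genes, since capture from the 3′ end can differ between them.

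Detection was also counted per barcode. In the NB duodenum *GATA4* was found in 46.0% of barcodes (44.3 to 47.7, exact binomial 95% interval), *CDX2* in 45.1% (43.5 to 46.8), *CDX1* in 40.9% (39.3 to 42.5), *GATA5* in 38.5% (36.9 to 40.2), *ONECUT2* in 21.6% (20.2 to 23.0), *GATA6* in 16.5% (15.3 to 17.8) and *PDX1* in 6.02% (5.25 to 6.85). In the NB abomasum *GATA5* was found in 50.9% and *GATA4* in 38.2%. *CDX1* was found in 50.6% of NB colon, 39.6% of NB rectum, 38.5% of AD jejunum, 35.6% of AD cecum and 29.0% of AD colon barcodes. A gene with no UMI in a barcode can still be expressed there, and free RNA gives UMIs in cells that do not express it. In barcodes with leukocyte markers and no *EPCAM* or *KRT14*, available in 13 libraries with median depths of 3463.5 to 10001 UMIs, no member exceeded 2.51% of barcodes or 3.77 CPM in any library; for *CDX1* in the NB rectum this background was 2.51% of barcodes and for *GATA4* in the NB duodenum 1.26%. Other barcodes without *EPCAM* or *KRT14* held higher values. In the NB abomasum *GATA5* was at 14.6 CPM (5.51% of barcodes) with muscle and pericyte markers, 8.88 CPM with fibroblast markers and 6.16 CPM with endothelial markers, and at 80.3 CPM in 36 barcodes with hepatocyte markers. *ONECUT2* was at 50.4 CPM in 65 NB duodenum barcodes with hepatocyte markers, and *GATA4* at 128 CPM in 96 NB liver barcodes with endothelial markers. When every barcode was thinned to 2000 UMIs, which left out 1361 shallower barcodes (2.62% to 9.89% per library), *CDX1* was found in 10.3% of NB duodenum, 7.502% of NB jejunum, 21.0% of NB colon, 17.1% of NB rectum, 22.4% of AD jejunum, 16.5% of AD cecum and 13.7% of AD colon barcodes. *GATA4* thinned in the same way was at 8.71% in the NB abomasum, 11.3% in the NB duodenum, 6.31% in the NB jejunum and 7.84% in the AD jejunum, and *PDX1* at 0.919% in the NB duodenum.

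**Figure D2:**
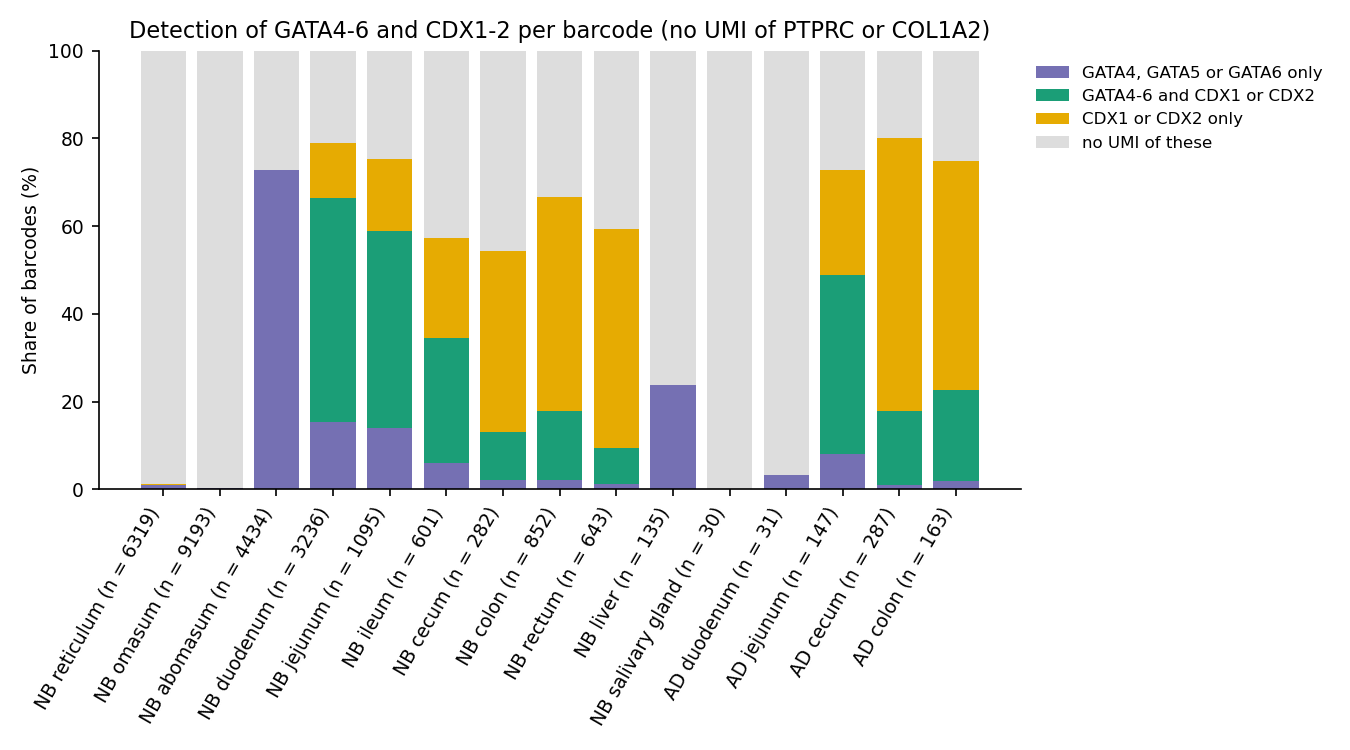
Share of barcodes (y axis, %) with a UMI of GATA4, GATA5 or GATA6 only, of CDX1 or CDX2 only, of both families, or of neither, in the stricter EPCAM or KRT14 barcodes of each library, with the number of barcodes beside its name and no thinning. The NB abomasum holds the GATA genes only (72.8%), the NB duodenum both in 51.0%, and the NB rectum the CDX genes only in 49.9%.

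Counted by family in the stricter barcodes, barcodes with a GATA UMI but no CDX UMI were the most frequent of the 3 kinds in the abomasum, those with both in the duodenum, jejunum and ileum, and those with CDX but no GATA in the cecum, colon and rectum. In the NB abomasum 3226 of 4434 barcodes (72.8%) had a UMI of *GATA4*, *GATA5* or *GATA6*, and 0 had one of *CDX1* or *CDX2*, which allows up to 0.0677%. Both families were found in the same barcode in 51.0% of the NB duodenum, 44.7% of the jejunum, 28.5% of the ileum, 10.99% of the cecum, 15.7% of the colon and 8.24% of the rectum. CDX without GATA was found over the same segments in 12.4%, 16.5%, 22.8%, 41.1%, 48.8% and 49.9%. The share with neither family was 21.1% in the duodenum and 24.7% to 45.7% further along, and these shares move with depth per barcode, as does any share of barcodes with a UMI. In the AD libraries both families were found in 40.8% of the jejunum, 16.7% of the cecum and 20.9% of the colon. Of 1560 NB duodenum barcodes with *GATA4*, 981 (62.9%) also had *CDX2*, and of 203 with *PDX1*, 138 (68.0%) had *GATA4*, 144 (70.9%) *CDX2* and 72 (35.5%) *ONECUT2*. Over all 3236 stricter barcodes of that library, 48.2% had *GATA4*, 47.3% *CDX2* and 22.8% *ONECUT2*; depth per barcode was not matched.

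The study asks how cells differ between tissues, and the 9 NB segments were compared with their neighbors from reticulum to rectum. The study digested the NB reticulum, omasum and abomasum with a mix of enzymes and the NB intestine with a kit. Between abomasum and duodenum, segment and dissociation thus changed together and cannot be told apart. A gene was called when its CPM differed at least 2-fold (counts under 3 set to 3) with intervals that did not overlap, among genes with at least 5 CPM and 10 UMIs in 1 of the 2 libraries. Between omasum and reticulum 4.63% of 8558 genes were called, and no member reached the minimum. Between abomasum and omasum 59.3% of 8827 genes were called, and 3 of 3 members tested were higher in the abomasum. *GATA4* was 355-fold and *GATA6* 101-fold higher, and *GATA5* 2026-fold with its 0 UMIs in the omasum set to 3. Between duodenum and abomasum 53.5% of 8803 genes were called, and 4 of 7 members were, all higher in the duodenum. *CDX2* was 1418-fold and *PDX1* 113-fold higher, with their 0 UMIs in the abomasum set to 3. Against 1 UMI each, *CDX1* was 3838-fold (688 to 151654) and *ONECUT2* 1482-fold (265 to 58609) higher. The *CDX1* and *ONECUT2* ratios use the 1 UMI as counted. With counts under 3 set to 3 they were 1279-fold and 494-fold. At both borders most genes tested were called, so the number of members called stands out little from the background. Each member called there was under 5 CPM in 1 of the 2 libraries, so the minimum also fixed its direction. Both borders carry a shift of the whole table: the median log2 ratio of the genes tested was -1.02 from omasum to abomasum and 0.97 from abomasum to duodenum. With the ratios centered on it, the 7 called members stayed called, *GATA5* and *GATA6* were also called lower in the duodenum than in the abomasum (log2 ratios -1.35 and -1.16), and the *GATA4* difference, 67.3 against 39.5 CPM, turned from a log2 ratio of 0.77 to below 0. Over the 8 pairs, the calls split into 8 higher and 6 lower as measured and 8 higher and 9 lower when centered.

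Further along, the background of called genes was lower. Between jejunum and duodenum 11% of 9095 genes were called, and 2 of 7 members, both lower in the jejunum: *ONECUT2* 7.59-fold and *PDX1* 41.7-fold (11.4 to 346), the jejunum holding 2 UMIs. With these 2 UMIs set to 3, as in the call rule, *PDX1* was 27.8-fold lower. Between ileum and jejunum 21.9% of 9522 genes were called and 1 of 5 members, *GATA4*. Between cecum and ileum 27.7% of 9947 genes were called and 2 of 4 members, *GATA5* (12.7-fold lower in the cecum) and *GATA6* (2.12-fold lower). Between colon and cecum 21.4% of 9770 genes were called and 1 of 3 members, *GATA6* (2.16-fold higher in the colon). Between rectum and colon 19.2% of 9674 genes were called and 1 of 3 members, *CDX2* (2.11-fold lower in the rectum). In the stricter barcodes 11 of the 14 calls over all pairs were made. The share of all genes called in the stricter barcodes is not given here. The 3 that were not were those of *GATA6* at the cecum and at the colon and that of *CDX2* at the rectum, which lie close to the 2-fold limit. The calls of *GATA4* at the ileum, *GATA5* at the cecum, and *PDX1* and *ONECUT2* at the jejunum, all lower than in the segment before, were made in both. Each of these members was under 5 CPM in the lower segment, so the minimum fixed the direction here as well.

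**Figure D3:**
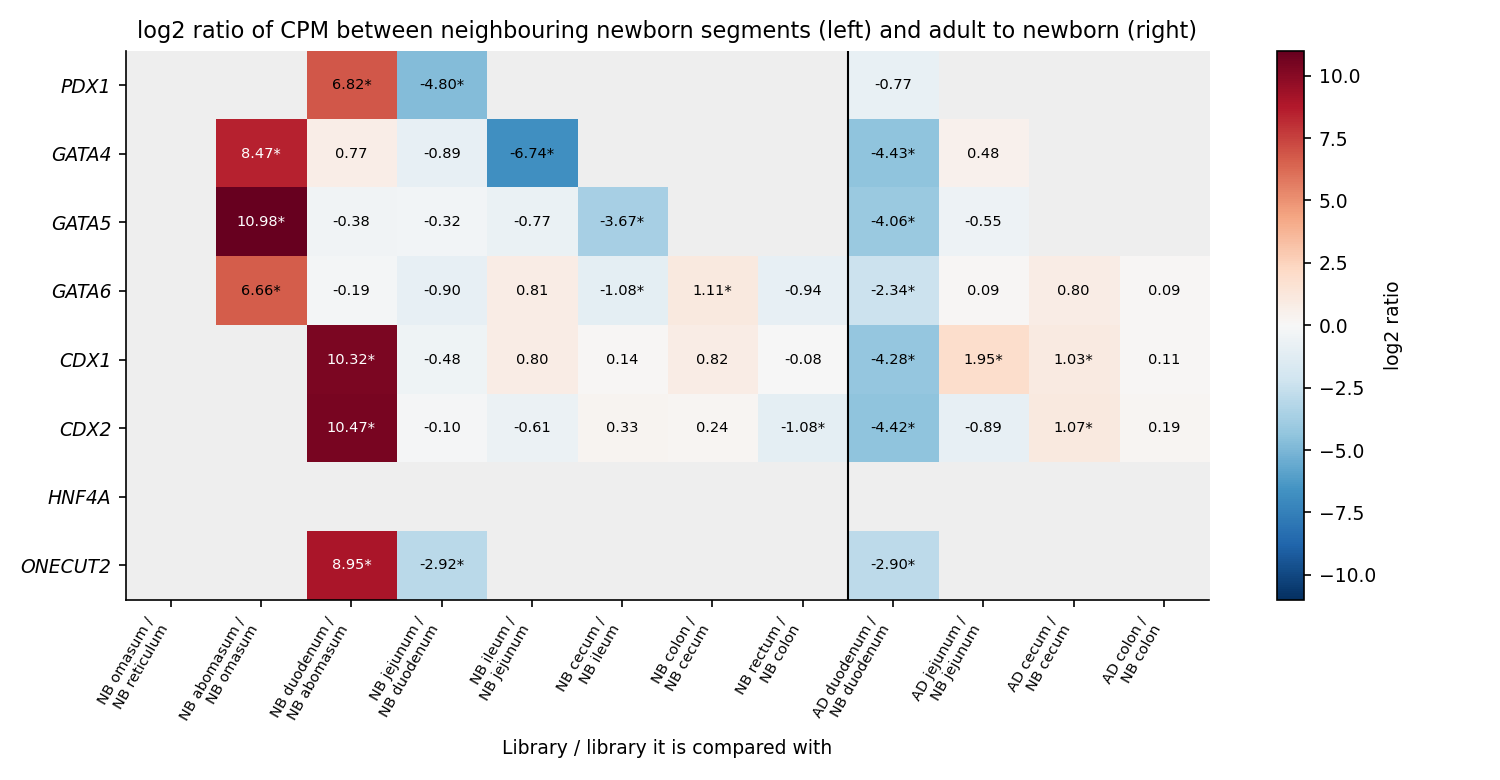
log2 ratio of CPM (color and number) for each member tested between neighboring NB segments (left of the line) and between AD and NB (right), the library named first over the second, with counts under 3 set to 3, so that values against such counts depend on depth. Asterisks mark calls (at least 2-fold with Poisson 95% intervals apart), and gray cells are members under 5 CPM or 10 UMIs in both libraries; the steepest left-hand values, 10.98, 10.47 and 10.32, are GATA5 at the abomasum and CDX2 and CDX1 at the duodenum.

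Other transcription factors known to differ by region were counted from a list of 85 symbols, of which 72 were in the gene table and 16 to 40 were tested per pair of neighbors. The list includes the HOX genes. Its median log2 ratio per pair ran from -3.62 (abomasum against omasum) to 1.68 (duodenum against abomasum), the same 2 borders at which the median of all genes was shifted. Between abomasum and omasum 7 of 21 tested were called higher and 12 lower in the abomasum, among them *TP63*, *PITX1* (562 CPM in the omasum and 1.95 CPM in the abomasum) and *PAX9*, a factor of the foregut epithelium. Between duodenum and abomasum 11 of 18 tested were higher and 4 lower. Over all genes the calls leaned the same way at both borders, with 751 higher and 4483 lower in the abomasum against the omasum and 4269 higher and 438 lower in the duodenum against the abomasum. *CREB3L3*, a regulator of lipid handling in liver and gut, stood at 92.2 CPM in the duodenum and 79.9 CPM in the jejunum and at 0.225 CPM in the ileum, the border at which *GATA4* ended. Barcodes with absorptive markers, listed further below, were 51.4% of the stricter barcodes in the NB jejunum and 8.65% in the NB ileum. The part of this mix in the *CREB3L3* difference was not tested. The HOX genes, which pattern the body axis, differed at the same border: of 36 with a symbol 18 were tested between ileum and jejunum, 13 were higher in the ileum and 0 lower, against 1085 higher and 999 lower among all genes. These 13 were among the 15 listed factors higher there, and 5 of the 6 listed factors higher in the jejunum than in the duodenum were HOX genes too. *HOXA9* was at 0.512 CPM in the jejunum and 105 CPM in the ileum, and *HOXB9* at 0.064 and 44.1 CPM. Between colon and cecum 15 of 40 listed factors were higher in the colon and 13 lower, against 516 higher and 1579 lower among all genes. The lower ones included *HOXC6*, at 44.7 CPM in the cecum and 0.444 CPM in the colon, while no member was called lower there. All values of the listed factors are over all *EPCAM* or *KRT14* barcodes, and those of the stricter barcodes are not given here. *COL1A2* was found in 34.2% of these barcodes in the NB cecum and 2.15% in the NB colon. The part of such barcodes in the differences of the listed factors was not tested.

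By a likeness of pattern over the 15 libraries (Pearson correlation of log2(CPM + 5) among genes with at least 20 CPM in 1 library, given as a description), the gene most like *PDX1* was *CYP3A5* (r = 0.995), followed by *OTOP3* (0.922) and *ONECUT2* (0.913). *ONECUT2* was most like *SDSL* (0.976) and *CYP3A5* (0.936). The values of *PDX1* and *ONECUT2* rest on a single high library, the NB duodenum. *GATA4* was most like *CREB3L3* (0.887), *GATA5* (0.882) and *PNLIPRP2* (0.839), and *GATA5* was most like *GATA4* and *KCNQ1* (0.794). *CDX1* was most like the brush border gene *CDHR2* (0.977) and *VIPR1* (0.977), and *CDX2* was most like *MYO7B* (0.981), a motor of the brush border, and the intestinal surface antigen *GPA33* (0.980). *GATA6* was most like *ECI2* (0.919), *CBR1* (0.892) and *FOXA2* (0.863). The libraries differ in depth and in the share of epithelial cells, and these differences also move the correlations.

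Levels were also read within single libraries, between classes of the stricter barcodes with at least 3 UMIs over a list of markers and at least 2 different markers. In the abomasum the classes were chief (over 20% of UMIs from *CYM*, *PGC* and *PGA5*), pit mucous (*GKN1*, *GKN2*, *TFF1*) and parietal (at least 10 UMIs over *ATP4A*, *ATP4B*, *KCNE2* and *CBLIF*). Chief barcodes were taken out of the pit mucous class, and chief and pit mucous barcodes out of the parietal class. A barcode that met the chief rule and another of these rules was thus counted as chief. The zymogen genes took 34.2% of the UMIs of the chief class, so levels are given over the UMIs outside these 3 genes. *GATA5* then stood at 269 CPM (251 to 288) in 408 pit mucous barcodes, 64.6 CPM (61.7 to 67.6) in 2524 chief barcodes and 45.2 CPM (38.4 to 52.8) in 372 parietal barcodes. *GATA4* was at 85.9 CPM (76.0 to 96.7), 42.3 CPM (40.0 to 44.8) and 85.5 CPM (76.2 to 95.8) in the same classes, and *GATA6* at 28.6 CPM (23.0 to 35.1), 22.7 CPM (21.0 to 24.5) and 25.3 CPM (20.3 to 31.1). Pit mucous barcodes were thus 4.16-fold above chief barcodes in *GATA5*, 2.03-fold in *GATA4* and 1.26-fold in *GATA6*, the last with overlapping intervals. Parietal barcodes were above chief barcodes in *GATA4* (2.02-fold) and below them in *GATA5* (0.70 times), both apart. The order depended on this denominator, which was chosen after seeing the data: over all UMIs *GATA5* of parietal and chief barcodes overlapped (42.2 against 42.5 CPM), and *GATA6* was apart from the chief class in both (1.79-fold in pit mucous and 1.58-fold in parietal barcodes). In 62 barcodes with markers of division *GATA5* was at 158 CPM (128 to 194), between the pit mucous and the chief class. These barcodes can also belong to the other classes.

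In the intestine, barcodes with goblet markers (*SPINK4*, *CLCA1*, *SPDEF*) had less *CDX2* than barcodes with absorptive markers (*FABP2*, *APOA4*, *APOA1*, *ALPI*, *SLC26A3*, *CA2*) in each of the 5 NB libraries with 20 or more barcodes of both. The levels were 33.5 against 72.5 CPM in the duodenum, 21.1 against 93.9 CPM in the jejunum, 38.6 against 102 CPM in the ileum, 46.3 against 87.2 CPM in the colon and 32.2 against 56.8 CPM in the rectum. The intervals lay apart in 4 of the 5, the rectum (19.1 to 50.9 against 47.0 to 67.9 CPM) being the exception, and the ratio was 0.225 to 0.568. *GATA4* went the same way in the 2 segments that express it, at 27.2 against 75.3 CPM in the duodenum and 15.02 against 54.4 CPM in the jejunum. *GATA5* did too in these 2 (27.7 against 58.0 CPM and 28.2 against 62.4 CPM), but not in the ileum (32.2 against 33.8 CPM) or the colon (8.07 against 3.71 CPM, overlapping). *CDX1* did not share this pattern: goblet barcodes were higher in the duodenum (75.9 against 61.4 CPM), lower in the ileum and colon (96.6 against 148 CPM and 164 against 234 CPM), and not apart in the jejunum and rectum. *GATA6* was not apart in any of the 5. In the AD cecum, the only AD library with enough of both classes, 43 goblet barcodes held *CDX2* at 138 CPM and 137 absorptive barcodes at 178 CPM (overlapping), and *CDX1* at 163 and 268 CPM (apart). *ONECUT2* and *PDX1* were also lower in the goblet barcodes of the duodenum, at 7.13 against 26.0 CPM and 0.419 against 6.12 CPM.

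**Figure D4:**
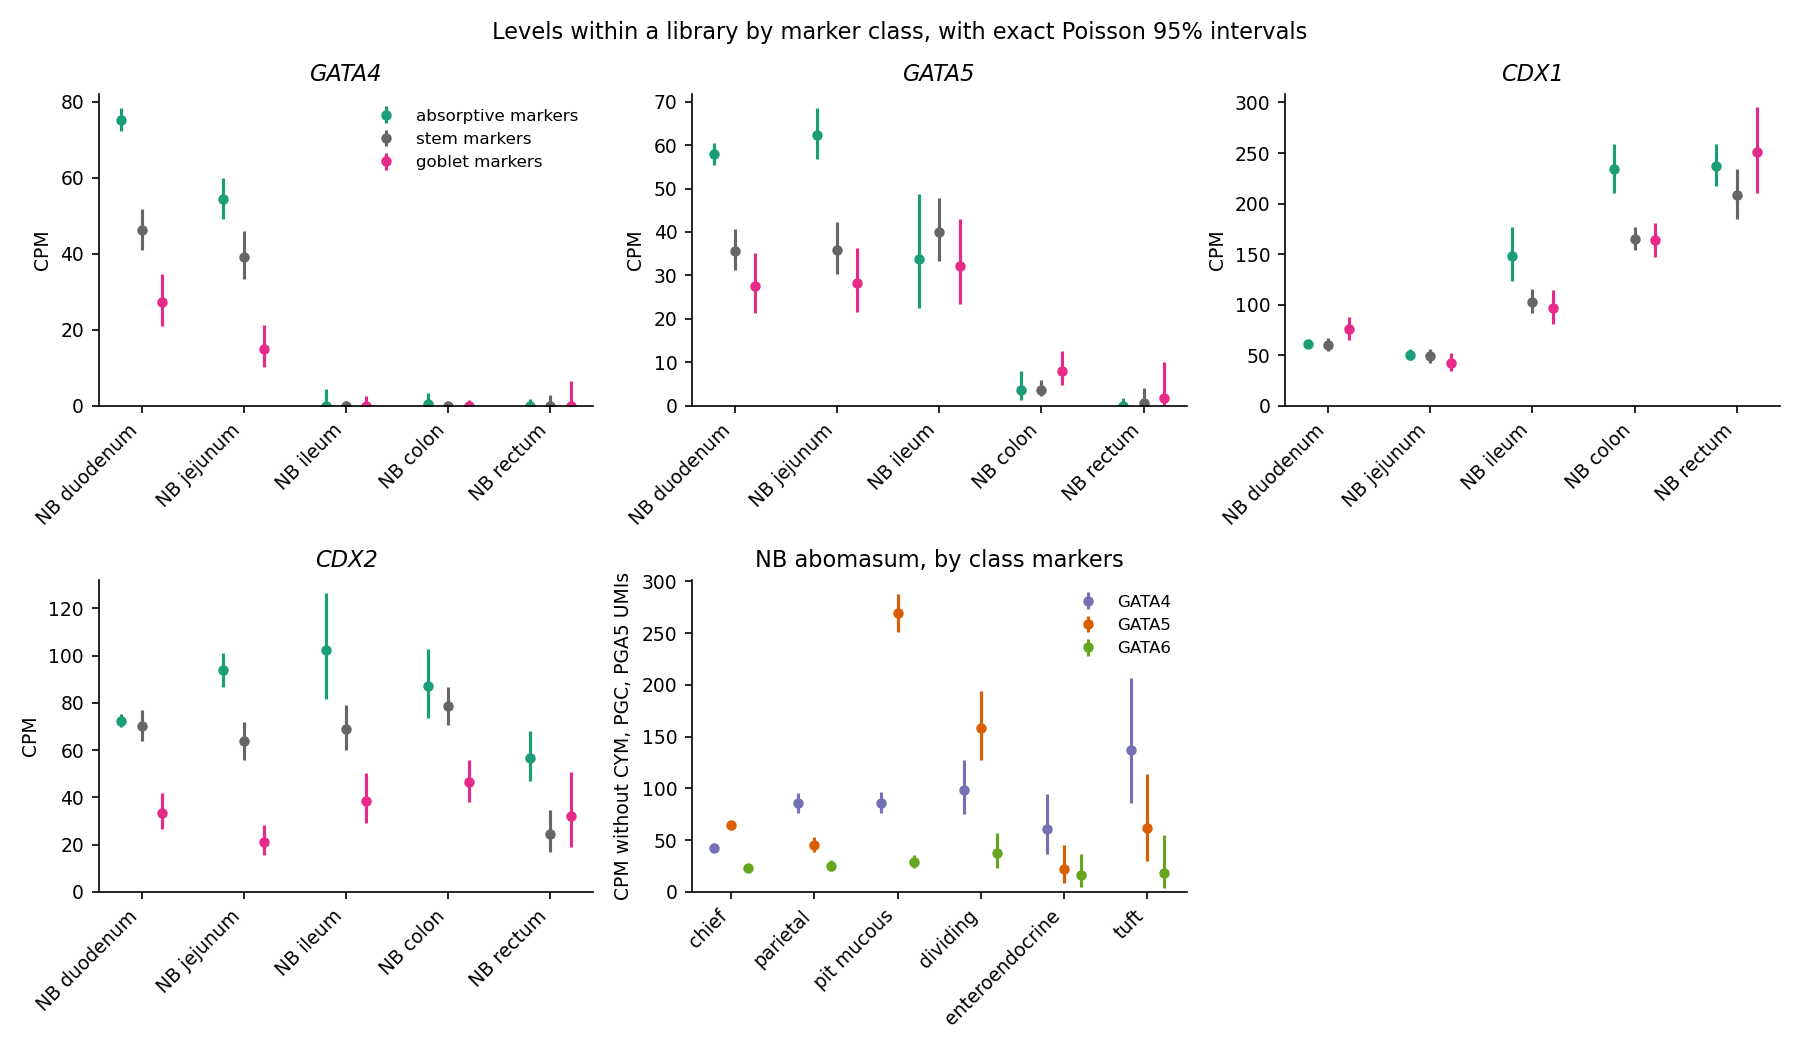
Levels (CPM, linear axes) of GATA4, GATA5, CDX1 and CDX2 in stricter barcodes with absorptive, stem or goblet markers of 5 NB intestinal libraries, and of GATA4, GATA5 and GATA6 in marker classes of the NB abomasum (CPM over UMIs outside CYM, PGC and PGA5), with exact Poisson 95% intervals. Stem barcodes can also fall in the absorptive or goblet class. CDX2 is lower in goblet than in absorptive barcodes in all 5 libraries, with overlapping intervals in the rectum, and GATA5 stands at 269 CPM in the pit mucous class against 64.6 CPM in the chief class.

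Barcodes with stem markers (*LGR5*, *OLFM4*, *ASCL2*, *SMOC2*) held *CDX2* at 70.3 CPM in the NB duodenum and 78.5 CPM in the colon, not apart from the absorptive class, and below it with intervals apart in the jejunum (63.7 CPM), ileum (69.0 CPM) and rectum (24.6 CPM). For *GATA4* they were at 46.2 CPM in the duodenum and 39.2 CPM in the jejunum, below the absorptive and above the goblet class in both. *GATA5* was at 35.7 and 35.9 CPM there, below the absorptive class with intervals apart, but not apart from it in the ileum (40.1 against 33.8 CPM) and colon (3.73 against 3.71 CPM). *ONECUT2* was at 11.4 CPM in the duodenum, 0.440 times the absorptive level. *CDX1* and *GATA6* of stem and absorptive barcodes were not apart in the duodenum and jejunum. In the ileum and colon *CDX1* was lower in the stem class with intervals apart (103 against 148 CPM and 165 against 234 CPM). Both *CDX1* and *CDX2* were lower in the stem than in the absorptive class in 6 of 6 NB libraries, *CDX2* in the cecum at 103 against 146 CPM (overlapping). Stem and dividing barcodes were not taken out of the absorptive or goblet class, and the stem and dividing classes can share barcodes too. The values set against each other here can thus come partly from the same barcodes, and their intervals do not compare separate sets. The class thresholds were chosen with the counts in view.

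The study's comparison of stages was read for the 4 tissues with an AD library. Stage, animal and dissociation changed together and cannot be told apart: the AD duodenum and cecum were dissociated with a lamina propria kit and the AD jejunum and colon with a multi tissue kit. The NB intestine was first treated with EDTA and trypsin and then digested with a propria dissociation kit. In the duodenum 54.4% of 9378 genes were called, and 6 of 7 members were lower in the AD library, in which *KRT8* stood at 3.12 CPM and 82.8% of barcodes had *PTPRC*. No member reached 5 CPM in that library, so the minimum fixed this direction. In the jejunum 38% of 10124 genes were called and 1 of 5 members, *CDX1*, at 168 against 43.5 CPM (3.88-fold). *GATA4* (50.7 against 36.2 CPM), *GATA5* (28.5 against 41.8 CPM), *GATA6* (8.98 against 8.45 CPM) and *CDX2* (33.8 against 62.6 CPM) were not called. In the stricter jejunum barcodes *GATA4* was at 76.0 against 41.2 CPM (1.84-fold, apart). There *GATA5* (42.8 against 47.7 CPM), *GATA6* (14.3 against 9.81 CPM) and *CDX2* (52.3 against 71.1 CPM) overlapped. In the cecum 27.4% of 10048 genes were called and 2 of 3 members, *CDX1* (169.7 against 83.1 CPM) and *CDX2* (107.8 against 51.5 CPM), both close to the 2-fold limit. Neither was called in the stricter barcodes, at 239.7 against 134 CPM for *CDX1* (1.79-fold) and 155 against 82.0 CPM for *CDX2* (1.89-fold), both with intervals apart. The limit of 4000 genes left out 314 *EPCAM* or *KRT14* barcodes of the NB cecum and 73 of the AD cecum. Without it the log2 ratios were 0.291 for *CDX1* and 0.501 for *CDX2*, and under 10% mitochondrial UMIs 0.433 and 0.328. That of *CDX1* in the jejunum was 1.2 without the limit, in place of 1.955, and still called. In the colon 33.6% of 9962 genes were called and 0 of 3 members, with 159 against 147 CPM for *CDX1*, 69.2 against 60.7 CPM for *CDX2* and 16.1 against 15.1 CPM for *GATA6*. *PTPRC* was found in 61.6% of the AD and 14.6% of the NB colon barcodes, and in the stricter barcodes all 3 were higher in the AD colon with intervals apart but under the 2-fold limit: *CDX1* at 265 against 163 CPM (1.63-fold), *CDX2* at 120.3 against 68.3 CPM (1.76-fold) and *GATA6* at 27.4 against 16.6 CPM (1.66-fold). Centered on the median log2 ratio of all genes (0.47 in the jejunum and 0.14 in the cecum), *GATA5* and *CDX2* were also called lower in the AD jejunum (-1.02 and -1.36), the calls in the cecum were lost, and the calls split into 1 higher and 8 lower in place of 3 and 6. Of the 9 calls over the 4 tissues, 3 were left without the duodenum and 1, *CDX1* in the jejunum, without the duodenum and in the stricter barcodes (5.00-fold).

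The makeup of the barcodes differed between the stages. In the AD jejunum 60 of 147 stricter barcodes (40.8%) had markers of tuft cells, the chemosensory cells of the gut (*POU2F3*, *TRPM5*, *AVIL*, *ALOX5*), and 0 of 1095 in the NB jejunum, which allows a share of up to 0.274%. *CDX1* stood at 475 CPM (402 to 557) in these 60 barcodes, with *GATA5* at 79.2 CPM, *GATA4* at 60.2 CPM and *CDX2* at 31.7 CPM. Tuft markers were also found in 14 of 163 AD colon barcodes (8.59%) and 20 of 287 AD cecum barcodes (6.97%). The 20 cecum barcodes held *CDX1* at 225 CPM, against 268 CPM in the absorptive class of that library, not apart. In the stricter barcodes with no UMI of a tuft marker, *CDX1* was at 135 CPM (109 to 165) in 76 AD jejunum barcodes and 49.1 CPM (45.3 to 53.1) in 1072 NB barcodes, 2.76-fold, and *GATA4* at 86.8 CPM (66.4 to 112) against 41.9 CPM (38.4 to 45.6), 2.07-fold. *GATA5* was lower (28.5 against 47.9 CPM, apart) and *CDX2* overlapped (59.8 against 72.3 CPM). In barcodes with absorptive markers alone, *CDX1* was at 268 CPM in the AD cecum and 186 CPM in the NB cecum (1.44-fold, apart) and at 289 and 234 CPM in the AD and NB colon (1.24-fold, overlapping), and *CDX2* at 178 and 146 CPM in the cecum (1.21-fold, overlapping) and 141 and 87.2 CPM in the colon (1.62-fold, apart). In the AD colon and cecum 48.5% and 47.7% of the stricter barcodes met the absorptive rule, against 14.3% and 11.7% in the NB libraries. In the jejunum it was the reverse, with 7 of 147 AD barcodes (4.76%) and 563 of 1095 NB barcodes (51.4%). The part of this mix in the differences over all barcodes was not tested.

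Outside the tract, the NB liver barcodes with *EPCAM* or *KRT14* held *GATA6*, *ONECUT2* and 1 UMI of *GATA5* but no *GATA4*, *PDX1*, *CDX1*, *CDX2* or *HNF4A* UMI. Of the 213, 135 were stricter barcodes and 107 of these had at least 2 of the bile duct markers *KRT19*, *KRT7*, *SOX9* and *SPP1*, and in these 107 *GATA6* was at 45.4 CPM (31.7 to 63.2). *ONECUT1*, a paralog of *ONECUT2*, was at 394 CPM in the liver barcodes. The hepatocyte genes *APOA1*, *ALB* and *TTR* stood at 32378, 683 and 651 CPM in the same barcodes, and their part in these levels was not tested. In the NB salivary gland all 8 members had 0 UMIs in 73 barcodes, which allows up to 5.56 CPM and 4.11% of barcodes, so a low level was not detectable at this depth. *PITX1*, a factor of the oral ectoderm, stood at 76.0 CPM there and *SOX10*, known from salivary acini, at 42.6 CPM.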

How the data were processed

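Single-cell counts of 15 libraries were used, 1 per tissue and stage, grouped by the labels for tissue and developmental stage. The authors aligned reads to ARS-UCD1.2 with Cell Ranger 3.1.0, and the deposited values are raw UMI counts per gene and barcode; the annotation release is not given in the sources used here. The filters of the study were applied (500 to 4000 genes, under 50000 UMIs, under 40% mitochondrial UMIs). For doublets, which the study found with DoubletFinder, a Scrublet-type score (2 simulated doublets per cell, 2000 variable genes, 30 components) was computed and the top scores removed at 0.8% per 1000 cells, which left 119798 of 172405 barcodes. The total per library was 17707625 to 129458578 UMIs.

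UMIs were summed over *EPCAM* or *KRT14* barcodes and given as CPM with exact Poisson intervals, and shares of barcodes with exact binomial (Clopper-Pearson) intervals, at 95%. A count of 0 was given the limit of 3 counts. Intervals and limits cover counting error only. The call rule was checked only on simulated Poisson counts, which hold no spread between cells, animals or libraries. Marker classes and the alternatives without the AD duodenum, without tuft markers and outside the zymogen UMIs were chosen after seeing the data. The members and lists were chosen with earlier results of these data known. Named genes were the members, 85 other regional factors and 31 region genes (72 and 27 with a symbol in the table), the markers, and the 3 genes most like each member in pattern. Some genes of the lists are counted but not reported here by name. Alternatives were other definitions of the barcodes, other filters, another scaling, another fold, and thinning to 2000 or 1000 UMIs. Barcodes without *EPCAM* or *KRT14* were given a lineage when the markers of 1 list had at least 3 UMIs and 2 times those of the next. Python 3.11.15, NumPy 2.4.6, SciPy 1.17.1, pandas 2.3.3, scikit-learn 1.9.0 and matplotlib 3.10.9 were used.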

Additional observations from a re-analysis of the deposited data

Results flagged for a closer look

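Both results concern barcodes left out of the levels above. In the NB liver, *GATA4* was found outside the *EPCAM* or *KRT14* barcodes. The 96 barcodes with endothelial markers (*CDH5*, *PECAM1*, *CLDN5*, *EGFL7*, *KDR*) held 29 UMIs of it, 127.9 CPM (85.6 to 184), in 19 barcodes (19.8%), while the 213 epithelial barcodes held 0 and the liver leukocyte-marker barcodes 0.0160 CPM. The other 7 members had 0 UMIs in these 96 barcodes. In the NB duodenum, *ONECUT2* stood at 50.38 CPM (28.8 to 81.8) in 65 barcodes without *EPCAM* and *KRT14* that met the hepatocyte list, against 23.3 CPM in the *EPCAM* or *KRT14* barcodes. That list holds *APOA1*, which stood at 6062 CPM in the *EPCAM* or *KRT14* barcodes of the NB duodenum. Meeting the list therefore does not show that these 65 barcodes are hepatocytes. Which markers of the list they held is not given here.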

How the results depend on the processing

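No paired analysis was possible because each tissue and stage had 1 library, and leaving out a replicate was not possible for the same reason. The share of all genes called was given only for the main setting, so counts of calls under the alternatives have no background beside them. The 14 member calls between neighbors were 11 to 20 over the alternatives. The 9 calls between stages were 5 in barcodes with no UMI of *PTPRC* or *COL1A2*, and, in alternatives added after seeing the data, 3 without the AD duodenum and 1 with both changes; the others gave 6 to 12. Of 230 values of called differences, 197 stayed called in the same direction and 31 fell below the limits, among them *CDX1* and *CDX2* in the AD cecum under 8 of 10 settings each. The other 2 turned in sign for *GATA6*, AD against NB duodenum, to log2 ratios of 0.502 with at least 2 UMIs of *EPCAM* or *KRT14* and 0.239 with no UMI of *PTPRC* or *COL1A2*, where 0 UMIs are set to 3 in a small total. Members with at least 5 CPM were 40 of 120 values of members and libraries, and 39 to 46 over the alternatives. A share of at least 5% of barcodes was reached by 40 of these 120, by 26 at 2000 UMIs and by 13 at 1000 UMIs per barcode, since thinning lowers each share. Depth limits most the salivary gland, the liver and the AD duodenum. The part of cell mix and free RNA in the levels was not tested beyond the classes given.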
